A study of Homo sapiens with 6 samples.

Results

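A group of 17 genes had lower mRNA in 1 of 3 libraries of neuroblastoma cells depleted of the long non-coding RNA GOMAFU (gene symbol MIAT), while the other 2 depleted libraries stayed near the controls. They were chosen by their measured values: a control mean no lower than 10 FPKM (FPKM is a fragment count corrected for gene length and library size), a level in knockdown replicate 4 of at most 0.6 times the lowest control, and levels in knockdown replicates 2 and 3 of at least 0.8 times the control mean. Symbols of small nucleolar, small Cajal body, micro- and spliceosomal RNAs, of histones and of CENP genes were left out. Of 26372 genes in the table, 6640 were eligible by control level and symbol, 18 of these met the limit in replicate 4, and 17 met the whole rule. The other one, the read-through transcript NME1-NME2, had 77.9% of its control mean in replicate 3. Because all 6 libraries entered the choice, the levels of the 17 genes are given as a description with no test.

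The cells were BE(2)-M17, an established human neuroblastoma line, and the only difference the labels give between libraries is the GOMAFU knockdown. The groups were control (replicates 2, 3 and 4) and GOMAFU knockdown (replicates 2, 3 and 4), and the comparison asked what loss of this RNA does to gene expression. Transfection used 100 pmol of a small RNA with Lipofectamine, a cationic lipid reagent. The labels say neither what the controls received nor whether replicates were separate cultures, so p-values here reflect variation among these libraries alone, and that variation may be technical.

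Of these genes, 7 act in cell division or are expressed with the cell cycle, and are called cell division members here. Transcripts for mitosis are made late in the cell cycle, when activating complexes replace repressive ones on promoters that carry CCAAT boxes, bound by the factor NF-Y, and a cell cycle genes homology region (CHR), bound by MuvB-containing complexes. PLK1 drives mitotic entry and spindle assembly, CDC20 activates the anaphase-promoting complex, and CEP55 recruits the abscission machinery that separates daughter cells. Other members serve iron uptake, sterol synthesis and sphingolipid signalling, which growing cells also use.

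The promoters of the 7 cell division members, grouped by cell division or cell cycle expression, are printed because each held both letter strings. UBE4B, which also held both, is not printed. RefSeq promoters (GRCh38.p14, 250 bases before to 50 after the annotated start) matched 13 of the 17 members. The stretches run 5′ to 3′ on the gene's own strand and cover PLK1 chr16:23678764-23678913 (plus strand), CDC20 chr1:43358856-43359005 (plus strand), CDCA3 chr12:6851262-6851411 (minus strand), CEP55 chr10:93496487-93496636 (plus strand), DEPDC1 chr1:68497058-68497207 (minus strand), PIF1 chr15:64825623-64825772 (minus strand), PRR11 chr17:59155621-59155770 (plus strand). Capitals mark CCAAT and TTTGAA on either strand, so that a match on the opposite strand reads ATTGG or TTCAAA, and no printed match overlaps another.
PLK1: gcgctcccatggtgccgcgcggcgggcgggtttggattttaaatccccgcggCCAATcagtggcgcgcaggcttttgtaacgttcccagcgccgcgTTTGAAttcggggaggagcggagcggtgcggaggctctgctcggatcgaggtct
CDC20: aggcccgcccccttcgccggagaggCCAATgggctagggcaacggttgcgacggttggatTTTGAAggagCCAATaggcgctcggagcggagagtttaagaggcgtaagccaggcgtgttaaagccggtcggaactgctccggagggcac
CDCA3: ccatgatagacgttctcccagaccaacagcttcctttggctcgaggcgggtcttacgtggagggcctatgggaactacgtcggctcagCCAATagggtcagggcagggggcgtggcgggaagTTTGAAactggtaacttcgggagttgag
CEP55: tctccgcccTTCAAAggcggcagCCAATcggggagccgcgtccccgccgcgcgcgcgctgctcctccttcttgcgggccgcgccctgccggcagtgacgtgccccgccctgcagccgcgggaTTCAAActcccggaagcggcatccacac
DEPDC1: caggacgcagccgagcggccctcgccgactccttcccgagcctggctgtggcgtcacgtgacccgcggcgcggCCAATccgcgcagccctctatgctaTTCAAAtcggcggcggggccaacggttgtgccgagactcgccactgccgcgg
PIF1: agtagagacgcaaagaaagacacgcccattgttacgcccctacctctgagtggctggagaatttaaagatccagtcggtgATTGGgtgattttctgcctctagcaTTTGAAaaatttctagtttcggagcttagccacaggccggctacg
PRR11: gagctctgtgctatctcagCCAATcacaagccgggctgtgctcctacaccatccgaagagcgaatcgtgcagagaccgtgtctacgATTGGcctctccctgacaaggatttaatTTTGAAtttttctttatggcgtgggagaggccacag

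The closest CCAAT and TTTGAA were 4 bases apart in CDC20, 8 in CEP55, 20 in DEPDC1, 20 in PIF1, 23 in PRR11, 29 in CDCA3 and 39 in PLK1. CCAAT was found in 12 of the 13 members' promoters (92.3%), TFRC being the one without it, against 38.5% of 5245 eligible genes' promoters and 35.7% of all 27305. TTTGAA was found in 8 of 13 (61.5%), the 7 cell division genes and UBE4B, against 9.06% of eligible and 15.4% of all promoters. Both strings stood together in 8 of 13 members and in 4.27% of eligible promoters. In the mitotic gene lists described further on, 49 of 72 promoters of genes outside the 17 held CCAAT (68.1%), 44 held TTTGAA (61.1%) and 33 held both (45.8%). Both strings were thus common among mitotic genes in general.

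Other strings were searched on both strands in the same windows. TTCGAA, a variant of the CHR, was in none of the 13 promoters and in 1.91% of eligible ones. The E2F-type strings TTTCCCGC and TTTGGCGC were in none, against 3.09% and 1.43% of eligible promoters. The TATA string TATAAA was in HMGCS1, from base -29, and in TFRC, from base -33, against 4.94% of eligible promoters. A match is a description of letters in these windows, not a binding site, and its absence says nothing of a factor. PIF1 and PRR11 were placed with the cell division genes after their values were seen, and the strings were searched with earlier results known.

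**Figure D1:**
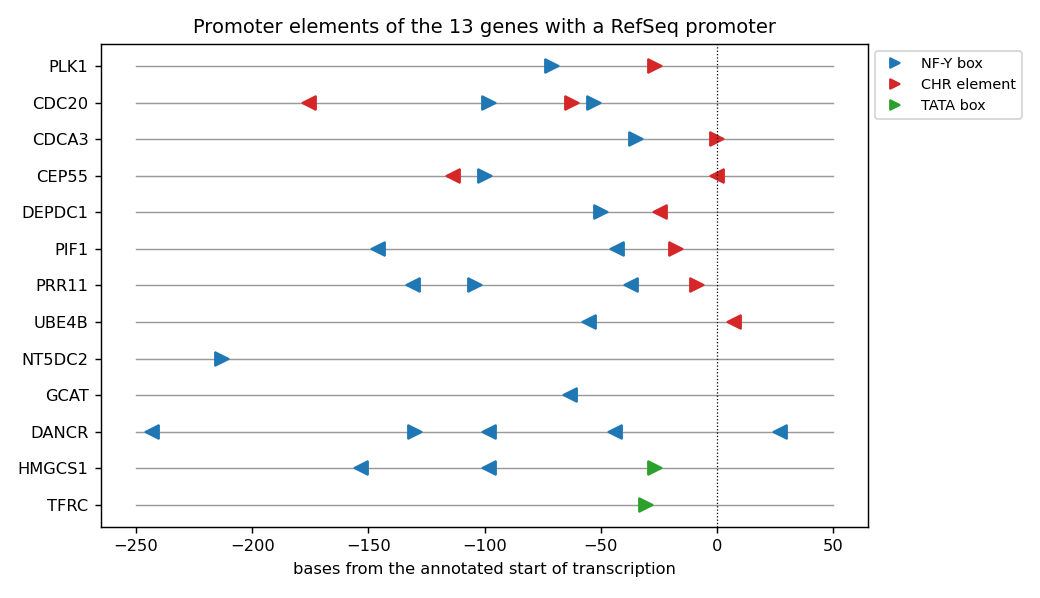
Positions of NF-Y box (blue), CHR element (red) and TATA box (green) matches, the 3 strings spelled out above, in the 13 RefSeq promoters, in bases from the annotated start (dotted line); triangles point right for matches on the gene's strand and left for the opposite strand. The top 7 genes, called cell division members in the text, each carry at least 1 NF-Y box and 1 CHR element, and TFRC carries only a TATA box.

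The rule set the size of the loss. In knockdown replicate 4 the 17 genes had 30.3% to 56.6% of their control mean (median 50.1%), in replicate 2 86.3% to 115% (median 97.1%) and in replicate 3 86.9% to 126% (median 103%). Control means ran from 11.2 to 222 FPKM (median 35.4), and the controls' coefficient of variation from 2.73% to 23.1% (median 6.17%, against 6.81% over eligible genes). The background of eligible genes at or under the 0.6 limit was 0.271%, a share of the contrast the rule used, so nothing is read from it. Replicate 4 lay below all 3 controls for all 17 by construction, as it did for 46.0% of eligible genes. Replicate 2 lay within the control range for 11 of the 17 genes, below it for 3 and above it for 3. Replicate 3 lay within it for 8, below it for 3 and above it for 6.

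**Figure D2:**
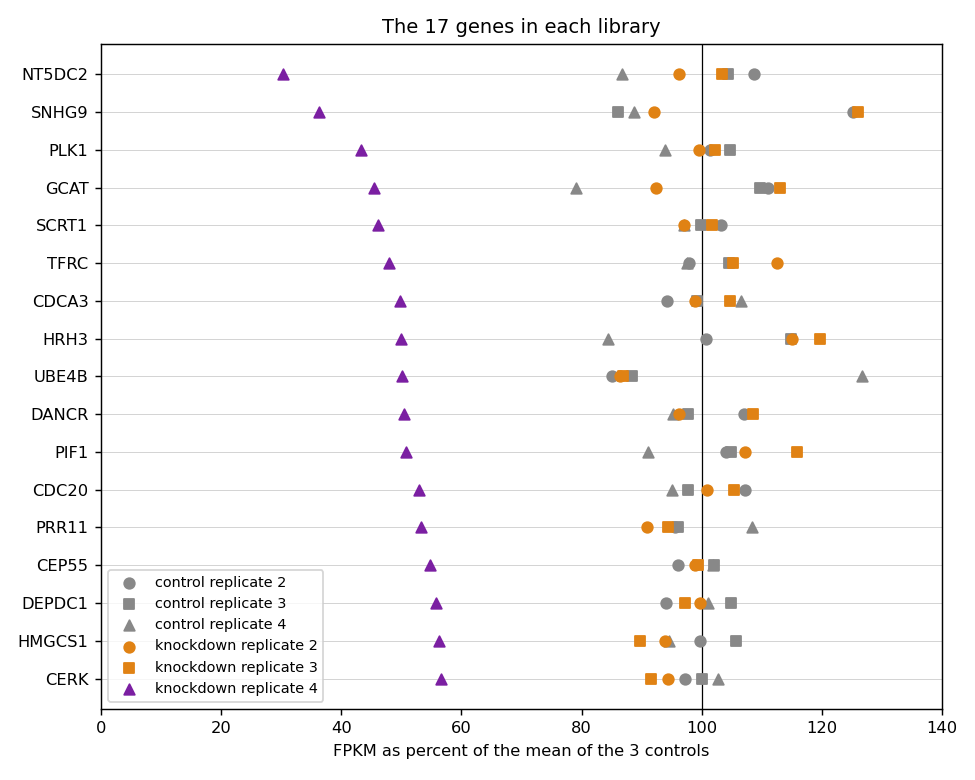
FPKM of the 17 genes in each library as percent of the mean of the 3 controls; grey symbols are controls, orange symbols knockdown replicates 2 and 3, purple triangles knockdown replicate 4. Replicate 4 sits between 30.3% and 56.6%, left of every other library, which is what the selection required.

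Polo-like kinase 1 (PLK1, chr16:23677656-23690367, plus strand, GRCh38 as in GENCODE 29, which gives all gene positions here) had 49.4, 51.0 and 45.8 FPKM in controls 2, 3 and 4. In knockdown replicates 2, 3 and 4 it had 48.5, 49.8 and 21.1 FPKM. Replicates 2 and 3 lay inside the control range, and replicate 4 stood at 43.3% of the control mean, the lowest share among the cell division members. The related kinase PLK4, which starts centriole duplication, had 101% of its control mean in replicate 4.

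CDC20 (chr1:43358955-43363203, plus strand), the co-activator that directs the anaphase-promoting complex to cyclin B and securin, had 132, 121 and 117 FPKM in the controls and 124.5, 130 and 65.3 FPKM in the knockdown libraries, in replicate order. Replicate 4 alone was low, at 52.9%. FZR1, which activates the same complex later in mitosis, had 106% in replicate 4. CDC20's substrates were lower there, with CCNB1 (cyclin B1) at 61.7% and PTTG1 (securin) at 67.8% of control.

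CDCA3 (chr12:6844793-6852066, minus strand), an adaptor that promotes mitotic entry, had 12.1, 12.8 and 13.7 FPKM in the controls against 12.7, 13.4 and 6.39 in the knockdown libraries. Only replicate 4 left the control range, at 49.8%. GNB3 overlaps it on the opposite strand, with 4.30 to 6.66 FPKM in the controls and 3.42 in replicate 4. Whether counting used strand is not given in the sources used here, so reads shared by these genes cannot be told apart. By name its relatives CDCA2 and CDCA8 had 65.6% and 68.2% in replicate 4, while CDCA5 (sororin), which holds sister chromatids together, had 107%.

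CEP55 (chr10:93496632-93529092, plus strand) had 33.96, 36.1 and 36.0 FPKM in the controls and 35.0, 35.1 and 19.3 in the knockdown libraries. DEPDC1 (chr1:68474152-68497221, minus strand), a protein needed for mitotic progression, had 20.7, 23.1 and 22.3 FPKM in the controls and 21.98, 21.4 and 12.3 in the knockdown libraries. For both genes replicates 2 and 3 fell inside the control range and replicate 4 was near 55% (54.7% for CEP55 and 55.8% for DEPDC1). Of the proteins CEP55 works with at abscission, PDCD6IP (ALIX) and TSG101 had 94.5% and 97.3% in replicate 4, and the midbody kinesin KIF23 had 66.9%.

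PRR11 (chr17:59155499-59204705, plus strand), a proline-rich protein whose level follows the cell cycle, had 32.5, 32.7 and 36.9 FPKM in the controls and 30.9, 32.1 and 18.1 in the knockdown libraries. All 3 knockdown libraries were below all 3 controls, replicates 2 and 3 by a small margin and replicate 4 at 53.3% of the mean. Its neighbour SKA2, a microtubule-binding protein of the kinetochore, starts 230 bases away in GENCODE 29 and is read in the opposite direction. SKA2 had 97.6% of its control mean in replicate 4, so the genes of this divergent pair differed there.

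PIF1 (chr15:64815632-64825668, minus strand), a DNA helicase that unwinds G-quadruplexes, had 14.4, 14.6 and 12.6 FPKM in the controls and 14.9, 16.1 and 7.06 in the knockdown libraries. Replicates 2 and 3 were above every control, and replicate 4 was at 50.8%. Of the 4 other helicases checked, RTEL1 and RECQL were below all controls in replicate 4, at 73.6% and 93.1%, and WRN and BLM had 107% and 117%. The relatives of members named here and below were listed after the members' values had been seen.

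The transferrin receptor TFRC (chr3:196027183-196082189, minus strand), which imports iron, had 71.8, 76.6 and 71.6 FPKM in the controls and 82.5, 77.1 and 35.2 in the knockdown libraries. Replicates 2 and 3 exceeded every control, while replicate 4 was at 48.0%. Its mRNA is stabilised by iron regulatory proteins when iron is short. Of the mRNAs of those proteins, ACO1 had 5.39, 5.21 and 5.07 FPKM in the controls and 6.23, 5.84 and 2.89 in the knockdown libraries, below the 10 FPKM limit but at 55.4% in replicate 4 alone. IREB2 had 110% in replicate 4, and FBXL5, which directs its breakdown, had 118%. The ferritin chains FTL and FTH1, which store iron, had 72.6% and 87.5%, and the iron transporter SLC11A2 had 92.7%. Against control 4, FTL had 84.3%, FTH1 98.4% and SLC11A2 92.2%.

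HMGCS1 (chr5:43289395-43313512, minus strand), which makes HMG-CoA at the start of the mevalonate pathway, had 58.0, 61.4 and 54.9 FPKM in the controls and 54.6, 52.2 and 32.7 in the knockdown libraries. All knockdown libraries were below all controls, with replicate 4 at 56.2%. Other steps were lower too in replicate 4. ACAT2, the step before, had 64.8% and the mevalonate kinase MVK had 67.0%. Against control 4, ACAT2 had 71.3% and MVK 78.9%.

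CERK (chr22:46684411-46738261, minus strand), which phosphorylates ceramide, had 34.2, 35.2 and 36.1 FPKM in the controls and 33.2, 32.2 and 19.9 in the knockdown libraries. It too had every knockdown library below every control, with replicate 4 at 56.6%. PRR11, HMGCS1 and CERK were the 3 members with no overlap between groups, which over the 12164 genes tested held for 4.35% in this direction. Those 12164 genes averaged at least 1 FPKM, a wider set than the eligible genes. The rule had put replicate 4 below all controls for every member, so nothing is read from this comparison. Of 4 eligible relatives in sphingolipid metabolism, the sphingosine kinase SPHK2 had 68.1% in replicate 4 and the ceramide synthase CERS2 93.7%, both below all controls. CERS5, another ceramide synthase, had 106% and the ceramide transporter COL4A3BP 123%. Against control 4, SPHK2 had 89.8%, CERS2 96.1%, CERS5 107% and COL4A3BP 104%.

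GCAT (chr22:37807905-37817176, plus strand), a mitochondrial enzyme of threonine breakdown to glycine, had 15.7, 15.5 and 11.2 FPKM in the controls and 13.1, 16.0 and 6.43 in the knockdown libraries. Control 4 was the lowest control, and replicate 4 was at 45.5% of the control mean but 57.5% of control 4. Both eligible relatives in glycine metabolism were below all controls in replicate 4. SHMT2, a mitochondrial source of glycine from serine, had 83.4% of its control mean. GCSH, the hydrogen carrier of the glycine cleavage system, had 66.9%. Against control 4, SHMT2 had 82.1% and GCSH 82.4%.

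NT5DC2 (chr3:52524385-52535054, minus strand), a protein with a 5′-nucleotidase domain, had 137, 132 and 109 FPKM in the controls and 121, 130 and 38.2 in the knockdown libraries. At 30.3% of the control mean it was the lowest of the 17, and its replicates 2 and 3 lay inside the control range. Its relatives NT5DC1 and NT5C2 had 96.9% and 116% in replicate 4. SMIM4 overlaps it on the opposite strand, with 28.3, 27.7 and 20.9 FPKM in the controls and 31.8, 29.2 and 17.7 in the knockdown libraries.

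SCRT1, a transcriptional repressor of the Snail superfamily found in neurons, had 55.4, 53.7 and 52.1 FPKM in the controls and 52.2, 54.7 and 24.7 in the knockdown libraries. Replicates 2 and 3 were inside the narrow control range, and replicate 4 was at 46.0%. Its closest relative SCRT2 had 85.4% in replicate 4, while SNAI1 had 175%.

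The histamine H3 receptor HRH3 (chr20:62214970-62220267, minus strand), an inhibitory receptor of neurons, had 11.3, 12.8 and 9.45 FPKM in the controls and 12.9, 13.4 and 5.58 in the knockdown libraries. Replicates 2 and 3 were above all controls and replicate 4 at 49.9%. The other histamine receptors, HRH1, HRH2 and HRH4, had control means of 0.0394, 0.0426 and 0.00653 FPKM, near 0.

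The ubiquitin chain elongation factor UBE4B (chr1:10032832-10181239, plus strand) had 10.2, 10.6 and 15.2 FPKM in the controls and 10.4, 10.4 and 6.01 in the knockdown libraries. Here control 4 stood above all other libraries, so that replicate 4 was at 50.1% of the control mean and at 39.6% of control 4. UBE4A, the other gene of the family, had 95.4% in replicate 4.

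The remaining pair are long non-coding RNAs that host small nucleolar RNAs in their transcripts. SNHG9 (chr16:1964959-1965509, plus strand, with 1 exon) had 170, 117 and 121 FPKM in the controls and 125.1, 171 and 49.3 in the knockdown libraries. Its controls spread widely and replicate 3 exceeded them, with replicate 4 at 36.2%. DANCR (chr4:52712404-52720351, plus strand), which keeps progenitor cells undifferentiated, had 237, 217 and 211 FPKM in the controls and 213, 241 and 112 in the knockdown libraries, with replicate 4 at 50.4%.

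The small RNAs inside both hosts, SNORA78 in SNHG9 and SNORA26 in DANCR, were listed at 0 in all 6 libraries. Other host genes did not share the low level. Over 11 eligible ones, replicate 4 ran from 77.6% (SNHG15) to 141% (ZFAS1) of control, with 4 below all controls. SNHG1 had 133%, and GAS5, which accumulates when growth stops, had 121%. Control 4 was the highest control for both, and against it SNHG1 had 113% and GAS5 106%. In the list of long non-coding RNAs, 5 of 22 eligible genes lay below all controls in replicate 4 (22.7%), and DANCR was 1 of them.

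The genes nearest the 0.6 limit were similar on both sides. Inside were HRH3 at 0.590, DEPDC1 at 0.593 and HMGCS1 at 0.594 times the lowest control. Just outside were KIF20A, a cytokinesis kinesin, at 0.610, PSRC1, a spindle protein, at 0.617, and KPNA2, a nuclear import receptor, at 0.620. All 3 of the latter are in the spindle list. CENPE, the kinetochore kinesin, met every numerical condition (control mean 23.8 FPKM, 11.8 FPKM in replicate 4) and was left out by its symbol.

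**Figure D3:**
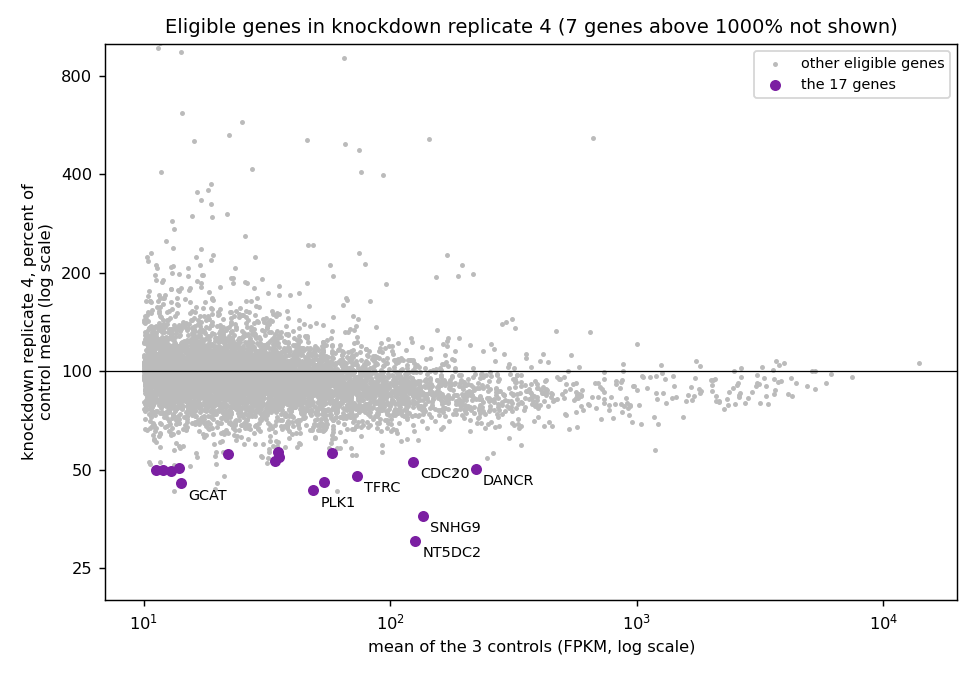
Level in knockdown replicate 4 as percent of the control mean against the control mean in FPKM (both axes on log scales) for eligible genes, grey, and the 17 members, purple; 7 genes above 1000% are not shown. The 17 genes lie near the lower edge across control means from 11.2 to 222 FPKM, and a tail of induced genes lies above. Some grey genes are as low, such as AKR1C3 at 45.6% and ASL at 52.5%, because the rule's limit used the lowest control.

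The 17 genes were then set beside gene lists, which were drawn up with earlier results known. In 3 mitotic lists the level in replicate 4 was also lower outside the members. Of 31 eligible genes for mitotic kinases, cyclins and the checkpoint, 28 lay below all controls in replicate 4, with a median log2 ratio to the control mean of -0.38, and PLK1 and CDC20 are among them. For spindle, kinesin and cytokinesis genes it was 29 of 31 with a median of -0.44, CEP55 and DEPDC1 included. For kinetochore, passenger complex and condensin genes it was 25 of 32 with a median of -0.18, CDCA3 included. Over all eligible genes the median was -0.08, with 46.0% below all controls.

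With the 5 members taken out, 77 of the remaining 89 mitotic genes (86.5%) lay below all controls in replicate 4 and the median log2 ratio was -0.34. In replicates 2 and 3 the medians of the same 89 genes were -0.025 and -0.0046. These lists share their control libraries with the selection, and limma called 0 of their genes at an adjusted p of 0.05 between the groups of 3. By control level, the leading genes outside the 17 were UBE2S (74.9% in replicate 4), CKS1B (87.2%) and CKS2 (68.3%) among kinases and cyclins. They were KPNA2 (54.3%), NUSAP1 (85.5%) and PRC1 (74.0%) among spindle genes, and HMGB2 (96.3%), TOP2A (84.5%) and SMC4 (80.4%) among kinetochore and chromatin genes.

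Mitotic genes did not all sit at the members' level. AURKA, DLGAP5 and BUB1B, picked after their values were seen, had 60.4%, 60.0% and 63.1% in replicate 4. By contrast CDK1 had 83.9%, FOXM1, the factor that drives late cell cycle genes, 90.2%, and MKI67, the proliferation antigen Ki-67, 87.0%. MASTL, a kinase of mitotic entry, was above control at 156%.

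Genes of DNA replication had levels nearer those of all eligible genes in replicate 4. Of 51 eligible S phase genes, 15 lay below all controls in replicate 4 (29.4%) and 11 above, with a median log2 ratio of -0.04 and no member among the 17. For homologous recombination and the Fanconi pathway it was 6 of 16 with a median of 0.02. The difference between the mitotic and replication lists was not tested.

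Sterol and fatty acid genes were low with HMGCS1. In replicate 4, 30 of 36 eligible genes (83.3%) lay below all controls, with a median log2 ratio of -0.31. The median was -0.08 in replicate 2 and -0.05 in replicate 3. HMGCS1, which the rule itself put below all controls in replicate 4, is 1 of the 30 and enters these medians. The most abundant outside the 17 were SCD at 82.7%, FDPS at 71.8% and ACLY at 84.6% of control. SREBF2, the factor that activates these genes, had 90.5% in replicate 4 and 82.4% and 79.8% in replicates 2 and 3. LPIN1, a phosphatidate phosphatase, was at 142%.

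**Figure D4:**
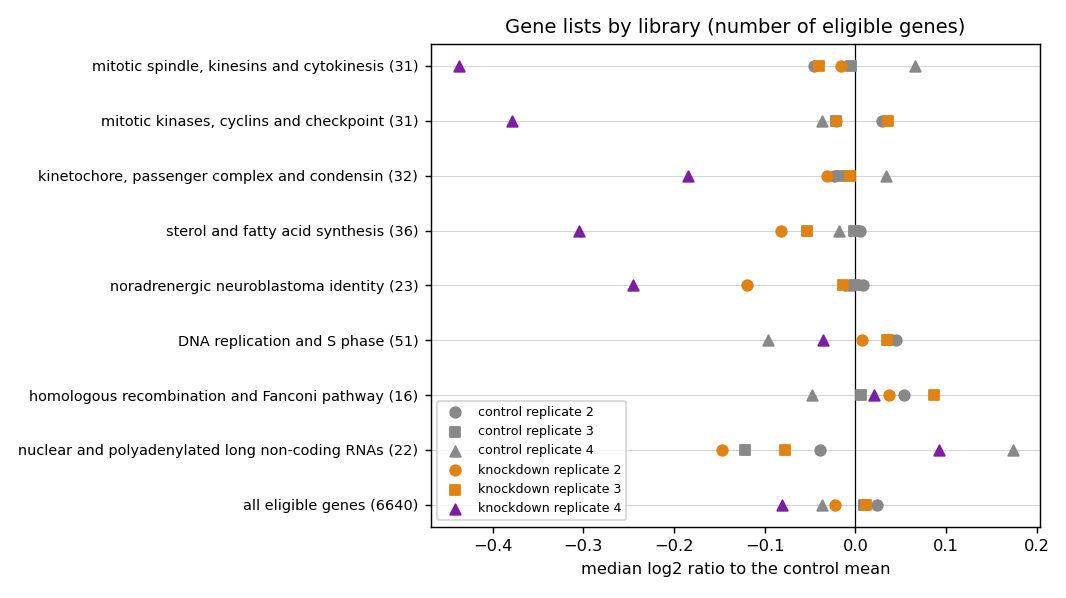
Median log2 ratio to the control mean of each gene list in each library, with the number of eligible genes in brackets; grey symbols are controls, orange knockdown replicates 2 and 3, purple triangles knockdown replicate 4. Replicate 4 stands at -0.44, -0.38 and -0.18 for the 3 mitotic lists and -0.31 for sterol and fatty acid synthesis, against -0.08 for all eligible genes and -0.04 for DNA replication.

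Many other lists were lower in replicate 4 as well. Of 25 lists with at least 5 eligible genes, 19 had a median below 0, and 16 lists outside those described in detail ran from -0.36 to 0.21, with 7.69% to 89.3% of their genes below all controls. Relative to the control mean, some were as low as the mitotic and sterol lists. In replicate 4, 50 of 56 genes of nuclear oxidative phosphorylation (89.3%) and 33 of 37 of ribosome biogenesis (89.2%) lay below all controls, each with a median of -0.29. Heat shock proteins, with 10 of 14 below, had a median of -0.36. Control 4 itself had medians of -0.15 for oxidative phosphorylation, -0.12 for ribosome biogenesis and -0.19 for heat shock proteins. For mitotic kinases, spindle and kinetochore genes it had -0.04, 0.07 and 0.03, and for sterol genes -0.02. The noradrenergic identity list of this tumour had a median of -0.25 in replicate 4, with 13 of 23 eligible genes below all controls and 8 above. Against the control numbered 4 its median was -0.056, beside -0.046 for all eligible genes.

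Replicate 4 stood apart from the other libraries throughout. Pairs of the other libraries reached a correlation of 0.997, but no higher than 0.989 with control 4. Replicate 4 correlated with those libraries at 0.964 to 0.975 (Pearson's r of log2 FPKM + 1 across eligible genes, which are not independent). Its relative depth, read from the steps of low values, was 1.06 times control 3, within the 0.969 to 1.36 of the others, and summed FPKM ran from 579365 to 637153. All 48 type I interferon response genes were above all controls in it, with a summed level of 18322 FPKM against 737 to 998 in the controls, 1654 in replicate 2 and 1063 in replicate 3. Under the mirror rule 55 genes were high in replicate 4 alone, among them RNF13 at 525% and B2M, the shared chain of MHC class I, at 516%. The part of this response in the low levels of the 17 genes was not tested.

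The same rule applied to the other knockdown libraries found 1 gene for replicate 2 (SERP2) and 3 for replicate 3 (GTF2IP1, RN7SL1 and RN7SL2). MIAT itself had 5.38, 5.96 and 8.57 FPKM in the controls and 1.27, 1.32 and 3.21 in the knockdown libraries. The groups did not overlap, at 29.2% of control on average, with p = 0.1 in a two-sided exact permutation test, the smallest that 3 against 3 libraries allow. Replicate 4 kept 48.4% of the control mean, more than the 19.2% and 19.9% of the others.

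Markers of the cell type were checked as well. HAND2, GATA3, PHOX2A and MYCN had control means of 541, 169, 417 and 2102 FPKM, while the noradrenergic marker TH was near 0 (0.0638). Of 12 immune cell markers 9 were below 1 FPKM in every library and 4 at 0, with sums of 3.08 to 3.69 FPKM in the controls and 2.98 to 4.47 in the knockdown libraries. Of 10 Schwann cell and melanocyte markers 7 were below 1 FPKM in every library and 2 at 0, with sums of 3.05 to 3.96 and 3.67 to 4.03. Of 12 fibroblast and endothelial markers 8 were below 1 FPKM in every library, with sums of 81.6 to 103 and 94.9 to 106, mostly DCN. In replicate 4, 5 of these 12 were above all controls, LUM at 192% and PDGFRB at 167% of control, while DCN was at 87.2%. Without DCN the sum was 47.0 FPKM in replicate 4, against 26.4 to 30.1 in the controls and 24.4 and 25.4 in replicates 2 and 3. The part of these markers in the low levels of the 17 genes was not tested. In bulk RNA, fewer cells in mitosis and less mitotic mRNA per cell cannot be told apart.

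Across all genes, limma found 0 of 12164 genes higher and 0 lower in the knockdown group at an adjusted p of 0.05, a background of 0% for lower calls. At an unadjusted p of 0.05, 118 were higher and 145 lower, and with library weights 9 were higher and 13 lower.

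The choice leaned on control 4. Without it 90 genes met the rule, all 17 members among them. Control 4 was the lowest control for 10 of the 17 genes, and for 53.2% of eligible genes. Against the control with its own number, replicate 4 ran from 34.9% to 59.4% (median 52.9%), replicate 2 from 73.5% to 115% (median 97.1%) and replicate 3 from 85.0% to 147% (median 101%).

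Outside the 17, the genes most like their mean profile over the 6 libraries were LINC00221 (r = 0.998), CCT4, a chaperonin subunit (0.997), LMNB1, lamin B1 (0.996), KIF2C, a mitotic kinesin (0.996), and MTHFD2, a mitochondrial folate enzyme (0.995). These are Pearson's r of log2(FPKM + 1), set largely by 1 library. Their levels in replicate 4 were 83.6%, 82.7%, 80.5%, 81.2% and 74.9% of control, closer to control than any of the 17.

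The 17 genes lie on 12 chromosomes, with GCAT and CERK both on chromosome 22 (11.8% of members, 2.50% of eligible genes). Their longest transcripts had a median of 2687 bases, against 3414 for the 6403 eligible genes matched to GENCODE 29. Transcript GC content had a median of 53.7% against 48.6%, and gene span 10670 against 28552 bases. Of the 17, 15 are protein-coding, and SNHG9 and DANCR are not.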

How the data were processed

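Deposited FPKM values of 3 control and 3 GOMAFU-knockdown libraries were used as 1 table. Per the submitters' processing notes, the authors used TopHat2 and Cuffdiff with hg38; versions, strand setting and replicate handling: not given in the sources used here. Count models were not applied, since FPKM are normalized. The members and lists were chosen with earlier results of these data known. All 17 members are named; the 3 nearest the limit on each side, the 5 most like genes and 3 genes a list by control mean follow rules, and other names were chosen after their values were seen. Knockdown was compared with control by limma 3.58.1 (R 4.3.3) on log2(FPKM + 1) over genes averaging 1 FPKM or more, with Benjamini-Hochberg adjustment, after a check on simulated data. Other values came from Python 3.11.15. Ratios to the control mean had no pseudocount. Deviations of same-numbered libraries from their group means correlated at 0.12, 0.37 and 0.50 for numbers 2, 3 and 4. Control 2 correlated more with knockdown 3 (0.55) than with its own number, and control 3 correlated with knockdown 2 at 0.29. The main limma fit was not paired, and same-numbered libraries were treated as pairs only in an alternative. FPKM give relative depth only, so no counting interval is given. Alternatives changed scaling, limits, pseudocount, filter, weights, pairing and the libraries kept. A few values of withheld genes are not reported here.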

Additional observations from a re-analysis of the deposited data

How the results depend on the processing

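The count of 17 members became 29 with a control mean of at least 5 FPKM, 5 at 0.5 times and 71 at 0.7 times the lowest control, and leaving out each library gave 17 to 90, the 90 without control 4. Without knockdown replicate 4 the group is undefined. Comparing same-numbered libraries, an alternative added after seeing the data that uses the replicate block, gave 25 genes, 16 of them shared, with SNHG9 lost. NT5DC2, PLK1, SCRT1 and TFRC met the rule in all 16 alternatives. Member log2 ratios ran from -1.82 to -0.75 over 119 recomputations, a direction that the choice of members fixes. With library weights limma called 9 genes higher and 13 lower, and with the replicate block, as with the other alternatives, it called 0. The log2 ratio of MIAT ran from -2.35 to -1.55 when single libraries were left out. With upper-quartile scaling the list medians were -0.43 for mitotic kinases, -0.24 for kinetochore, -0.36 for sterol and -0.30 for noradrenergic genes, and -0.13 for all eligible genes. With quantile normalization they were -0.29 for sterol and -0.18 for noradrenergic genes. Against the same-numbered control (replicate block) they were -0.51 for spindle, 0.13 for recombination, -0.32 for sterol, -0.056 for noradrenergic and 3.31 for interferon genes (3.41 against the control mean), and -0.046 for all eligible genes. The cause of these moves was not tested. Depth is known only relative to control 3, and with 3 libraries a group the spread is poorly estimated.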
